A study of Mus musculus with 36 samples.

Results

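Immediate early genes are transcribed within minutes of a stimulus from factors already present in the cell. The best known group encodes AP-1, the dimers formed by Fos and Jun proteins. The 8 genes described here are immediate early genes outside AP-1 and were chosen by name: the transcription factors Egr1, Nr4a1 and Myc, the immediate early response genes Ier2, Ier5 and Ier3, the mRNA decay factor Zfp36 and the antiproliferative gene Btg2. All 8 were among the 20181 genes of the Lrig1 count table and the 22587 genes of the Lgr5 count table. All 8 also passed the filter on low counts in both, among 14306 and 18025 genes tested.

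The libraries were mini-bulk RNA-seq of 150 sorted tdTomato-positive cells, made from full-length cDNA (Smart-seq2). The cells came from mouse tail epidermis, from a zone that held the wound bed as well as distal hair follicles. The mouse lines carried EGFP and CreERT2 in the Lrig1 or the Lgr5 locus together with a Rosa26 tdTomato reporter behind a floxed stop, and both lines, unwounded controls included, received topical hydroxytamoxifen. Lrig1 marks cells of the upper hair follicle and Lgr5 cells of the lower follicle. Their labelled progeny are called Lrig1 GL and Lgr5 GL cells below, and the sort took every tdTomato-positive cell whatever its state or place. Groups were homeostasis (0w), 1w, 2w, 4w and 8w after a first full-thickness wound (pw1), and 1w after a second wound made at 8w (1w pw2, labelled 9W), with 3 libraries in each of the 12 groups and 36 libraries in all. Young adult mice of both sexes were used, and the time courses rest on 3 mice, as many as the libraries of a group. Population, mouse line and count table coincide, so these cannot be told apart.

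In skin, immediate early genes respond to growth factors, stretch and injury through MAP kinase signalling to serum response factor and CREB. Enzymatic release and sorting of cells also induces many of the same genes, so their mRNA in sorted cells can reflect the tissue, the isolation or both. Here epidermis was peeled after a cold overnight trypsin-EDTA step, then chopped, filtered and sorted, in the same way for all groups. Comparisons between time points therefore share the isolation procedure. The labels give no day of isolation, however, so time point and isolation session cannot be told apart. No unwounded group was taken at the later times, so age and time since labelling also coincide with time point. The absolute level in any library does not separate the sources either.

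The 18 Lrig1 libraries held 765252 to 3365666 counts (median 1930063) and the 18 Lgr5 libraries 1297798 to 6960537 (median 4284763). A count of 3, taken as the floor, corresponded to between 0.891 and 3.92 CPM (counts scaled to library size) in the first and between 0.431 and 2.31 CPM in the second. These floors cover counting error only, since the reads carried no molecular identifiers. Mitochondrial counts took 12.8% ± 1.77 (SD, n = 3) in the Lrig1 8w libraries against 4.58% ± 1.24 at 0w. A single predicted gene, Gm12415, took 12% to 52.1% of the counts of the Lgr5 libraries and close to none of those of the Lrig1 libraries. Summed CPM of the keratinocyte markers was between 15570 and 56970 in every library, against 0 to 75.35 for immune cell and 0 to 22.19 for endothelial markers. Fibroblast markers summed to 29.4 to 561 CPM and muscle and pericyte markers to 3.57 to 418 CPM. The replicate number of 15 libraries could be matched to its label. The other 21 libraries, those of Lrig1 at 2w, 4w and 8w and of Lgr5 at 0w, 2w, 4w and 8w, were known by group only and are called a, b and c.

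Per kilobase of exon, the order of the 8 genes was nearly the same in both populations. Ier2 was highest, at 253 CPM per kb over the 18 Lrig1 libraries and 223 over the 18 Lgr5 libraries, and Ier3 came next at 183 and 145 CPM per kb. Egr1 (72.0 and 53.8), Zfp36 (63.7 and 39.5) and Myc (48.1 and 30.8 CPM per kb) followed in that order in each. Ier5 and Btg2 lay lower, at 14.99 and 14.6 CPM per kb in Lrig1 GL cells and at 11.4 and 25.1 in Lgr5 GL cells. Nr4a1 was far below the rest at 2.17 and 2.40 CPM per kb, and had no count in 4 Lrig1 and 2 Lgr5 libraries. Its fold changes are therefore less certain than those of the other members.

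**Figure D1:**
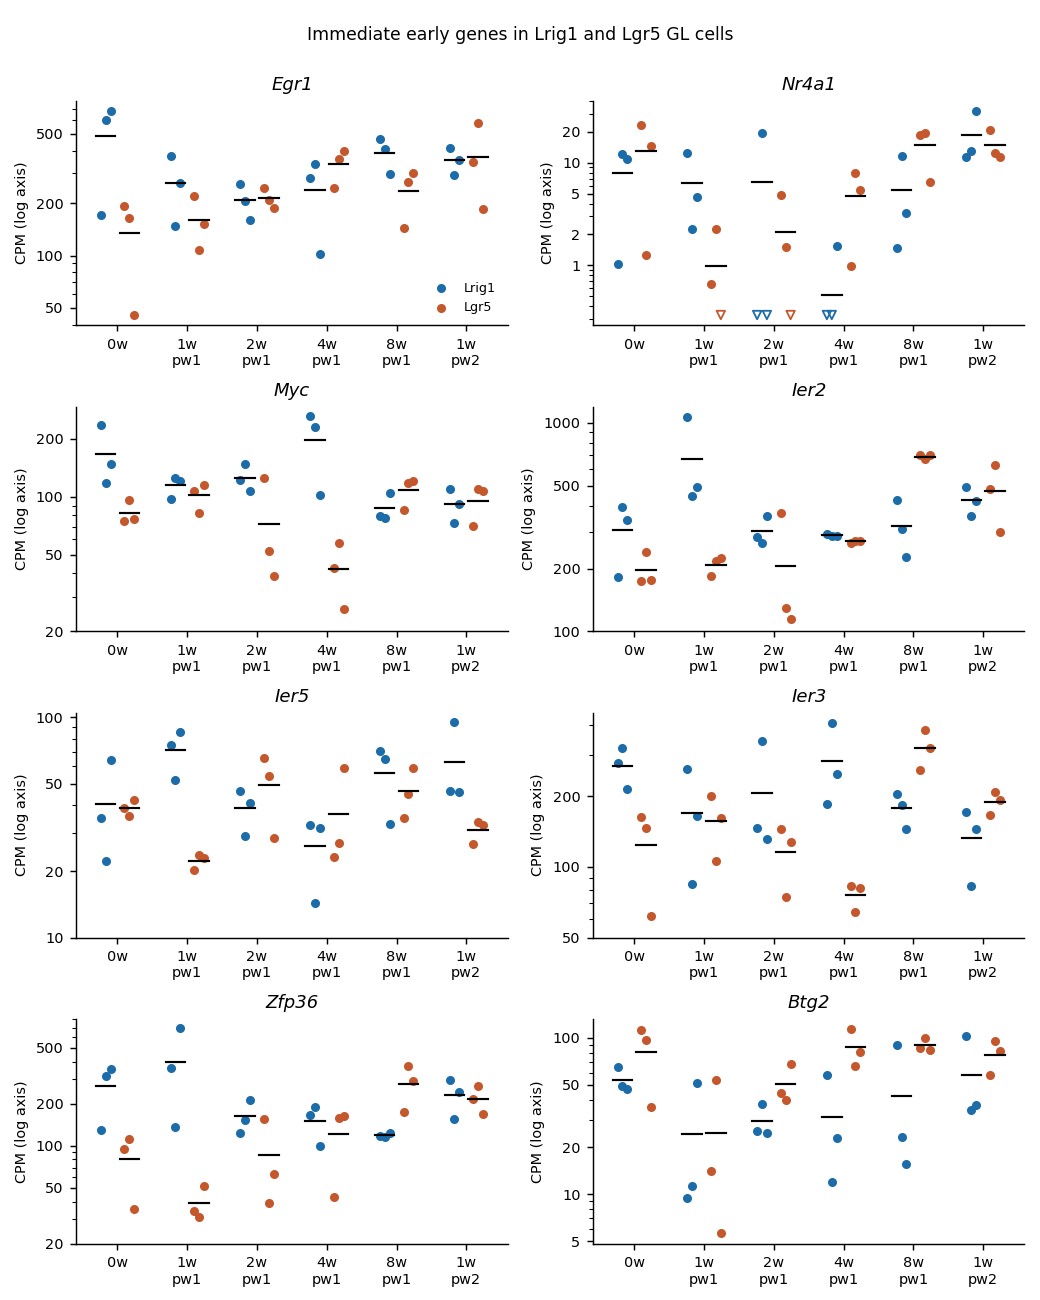
Level of each of the 8 genes in every library, in CPM on a log axis, by time point and population. Points are single libraries, black bars are means of 3 libraries, and open triangles at the bottom are libraries with no count. Ier2 at Lgr5 8w, between 667 and 698 CPM, stands above all 0w, 1w, 2w and 4w libraries of that population.

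The genes lie on separate chromosomes or far apart, with coordinates here from GENCODE M21 on GRCm38. Ier2 (chr8:84661331-84662852), Ier5 (chr1:155096361-155099636) and Zfp36 (chr7:28376784-28380253) are annotated on the minus strand as a single exon block. Btg2 (chr1:134075170-134079120) is also on the minus strand, with 2 exon blocks. On the plus strand are Ier3 (chr17:35821684-35822923, 2 exon blocks), Myc (chr15:61985391-61990374, 4), Nr4a1 (chr15:101254269-101274795, 10) and Egr1 (2 blocks). Zfp36 overlaps the predicted gene Gm44710 on the opposite strand, and strand-specific counting is not stated, so reads of the pair cannot be told apart.

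Immediate early promoters are known for elements bound by factors that a stimulus activates directly. The 250 bases before the RefSeq start are given for 4 members whose level in Lgr5 GL cells varied most over time among those in the promoter table, from RefSeq on GRCm38.p6 and 5′ to 3′ on the gene's own strand. RefSeq starts can differ from the outermost GENCODE start. Capitals mark the CArG box (the serum response factor element) in Zfp36, the cyclic AMP response element (CRE) TGACGTCA in Btg2 and its core TGACG, on either strand, in Nr4a1. Ier3 held none of these and has no capitals.
Ier3, chr17:35821463-35821712, plus strand: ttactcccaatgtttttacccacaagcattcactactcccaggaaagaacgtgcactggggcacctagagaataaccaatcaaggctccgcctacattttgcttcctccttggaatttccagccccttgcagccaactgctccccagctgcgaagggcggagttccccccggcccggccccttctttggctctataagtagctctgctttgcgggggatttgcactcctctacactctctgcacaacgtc
Zfp36, chr7:28379229-28379478, minus strand: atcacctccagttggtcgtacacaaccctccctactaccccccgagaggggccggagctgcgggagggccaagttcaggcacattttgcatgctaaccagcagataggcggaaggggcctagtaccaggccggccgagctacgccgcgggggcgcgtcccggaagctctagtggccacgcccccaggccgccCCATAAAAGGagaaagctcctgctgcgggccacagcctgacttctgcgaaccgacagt
Btg2, chr1:134079156-134079405, minus strand: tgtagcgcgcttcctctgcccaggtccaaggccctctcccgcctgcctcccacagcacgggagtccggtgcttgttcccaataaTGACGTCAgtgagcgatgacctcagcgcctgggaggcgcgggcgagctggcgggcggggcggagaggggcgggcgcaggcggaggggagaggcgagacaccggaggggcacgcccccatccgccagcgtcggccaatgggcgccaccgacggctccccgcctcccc
Nr4a1, chr15:101266596-101266845, plus strand: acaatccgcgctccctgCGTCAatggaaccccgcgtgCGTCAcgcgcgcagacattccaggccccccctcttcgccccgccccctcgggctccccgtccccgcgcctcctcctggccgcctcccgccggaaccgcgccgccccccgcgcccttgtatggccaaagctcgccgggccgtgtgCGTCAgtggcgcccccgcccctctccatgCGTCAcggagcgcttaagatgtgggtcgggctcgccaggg
Across 300-base windows of 32851 RefSeq promoters, reaching 50 bases past the start, searched on both strands, the CArG box was found in 1.63%, the CRE in 1.79% and the core TGACG in 20.8%. In Zfp36 the CArG box spanned -58 to -49 from the start, and its first base overlapped an SP1 match (GGGCGG) ending at -58. The CRE of Btg2 spanned -166 to -159, and both of its overlapping TGACG cores lay inside it. Nr4a1 had 4 TGACG matches, the nearest at -40 to -36. Matches to an EGR site (GCGNGGGCG, in 5.55% of promoters) were present in Nr4a1, Zfp36 and Btg2, and the SP1 match, found in 35.7% of promoters, was present in these 3 and in Ier3 and Ier5. None of the 5 promoters held an AP-1 site (TGANTCA, in 7.81%), an E-box (CACGTG, in 7.15%) or TATAAA (in 13.6%). These are matches of letters in one window and not evidence of binding.

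Across the time course, Ier2 and Ier3 were called in Lgr5 GL cells, and none of the 8 genes was called in Lrig1 GL cells. Neither Lgr5 call held with surrogate variables (estimated nuisance factors) in the fit. A gene was called at an adjusted p under 0.05 (edgeR quasi-likelihood test, Benjamini-Hochberg over all genes tested) together with a fold change from 0w of over 1 log2 unit, in either direction, at some time point. Among Lgr5 GL cells, the call was met by 2 of 8 members, against 1.13% of all genes, and 7 of 8 had an unadjusted p under 0.05, against 16.9%. Among Lrig1 GL cells, 0 of 8 were called, against 1.63% of all genes, and 3 of 8 (Ier2, Zfp36 and Myc) had an unadjusted p under 0.05, against 20.5%. DESeq2 and the edgeR likelihood ratio test each called Ier2 and Zfp36 in Lrig1 GL cells, and limma-voom called none. Fewer cells of a type and less RNA per cell cannot be told apart in such bulk libraries. The p-values rest on the spread between the 3 libraries of a group, estimated jointly over all groups of a fit. With 3 libraries against 3, an exact two-sided permutation test cannot go below 0.1.

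Ier2 encodes a small nuclear protein that acts as a transcriptional co-regulator. For Lgr5 GL cells, its level was 175, 241 and 176 CPM at 0w, 183, 218 and 224 CPM at 1w pw1, 370, 130 and 114 CPM at 2w and 265, 272 and 272 CPM at 4w. At 8w it reached 698, 667 and 698 CPM, and at 1w pw2 it was 481, 629 and 300 CPM. The 8w libraries were the highest of the population and overlapped no other group, and those of 4w, 8w and 1w pw2 were all above those of 0w. The mean was 688 ± 18.1 (SD, n = 3) at 8w against 197 ± 37.6 CPM at 0w. The time course passed the test (adjusted p = 0.0254, edgeR). At 8w against 0w alone, the log2 fold change of 1.80 ± 0.37 (SE) had an unadjusted p of 0.000125 by the edgeR quasi-likelihood test and an adjusted p of 0.463. The 0w, 1w and 2w means, at 197, 209 and 205 CPM, differed by less than their spread. Leaving out any of the 3 libraries of 8w raised the adjusted p of the time course, to between 0.0685 and 0.0775, and it was 0.0516 without 0w replicate a and 0.0559 without 4w replicate c. With surrogate variables in the fit, 4 as estimated or 2, the adjusted p was 0.165 and 0.0814.

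For Lrig1 GL cells, Ier2 was highest at 1w pw1, a different time point. Its levels there were 1067, 445 and 492 CPM, all above the 0w libraries at 182, 393 and 342 CPM. The mean was 668 ± 346 (SD, n = 3) against 306 ± 110 CPM, a log2 fold change of 1.13 ± 0.36 (SE) that did not pass (adjusted p = 0.232, edgeR quasi-likelihood test). From 2w to 8w the group means were between 289 and 320 CPM, close to 0w, and at 1w pw2 the mean was 424 ± 69.2 CPM.

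Ier5, a relative of Ier2 that acts on heat shock factor and protein phosphatase activity, was called in neither population. Across Lgr5 libraries it was 38.8, 35.5 and 42.1 CPM at 0w and 20.2, 23.8 and 23.0 CPM at 1w pw1. The 1w libraries were below every 0w library, but the log2 difference of -0.80 did not pass the test. At later times means lay between 30.8 ± 3.65 (1w pw2) and 49.5 ± 19.2 CPM (2w). Across Lrig1 libraries the 1w mean was instead above that of 0w, at 70.8 ± 17.1 against 40.4 ± 21.4 CPM, with overlap, and the lowest mean was at 4w, 26.1 ± 10.2 CPM. The difference between populations in this change was 1.59 ± 0.62 (SE) in log2, with an adjusted p of 0.231 (edgeR).

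Ier3, which modulates cell survival and MAP kinase signalling, was the other gene called in Lgr5 GL cells. It measured 163, 146 and 61.7 CPM at 0w, 200.3, 106 and 162 CPM at 1w pw1, 145, 74.7 and 128 CPM at 2w and 82.7, 64.1 and 81.4 CPM at 4w. At 8w it measured 259, 382 and 321 CPM, and at 1w pw2 167, 209 and 193 CPM. All 8w libraries were above those of every other time point, and those of 1w pw2 were still above 0w. The time course had an adjusted p of 0.0354 (edgeR), and 8w against 0w a log2 fold change of 1.38 ± 0.35 (SE) with an adjusted p of 0.509. This call was lost without 8 of the 18 libraries in turn, with adjusted p up to 0.124 (without 8w replicate b). Those were the 3 libraries of 8w, 2w replicate c, 4w replicates b and c, and 1w pw2 replicates 2 and 3. With 4 or 2 surrogate variables the adjusted p was 0.134 and 0.0521.

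Within the Lrig1 population Ier3 was highest in mean at 4w and 0w. Its 276, 320 and 214 CPM at 0w were above the 205, 183 and 145 CPM at 8w and the 170, 82.7 and 145 CPM at 1w pw2. Neither group overlapped 0w, and the log2 difference of 1w pw2 from 0w was -1.03 ± 0.45 (SE), with an adjusted p of 0.23 (edgeR).

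Zfp36 (tristetraprolin) binds AU-rich elements and sends mRNAs of cytokines and of other early genes to decay. Within the Lgr5 population it was at 95.3, 112 and 35.5 CPM at 0w, at 34.3, 31.1 and 52.1 CPM at 1w pw1, and at 174, 371 and 290 CPM at 8w. At 1w pw2 it was at 215, 268 and 169.8 CPM. The 8w and 1w pw2 libraries were all above those of 0w and 1w. The time course was just outside the threshold (adjusted p = 0.0569, edgeR quasi-likelihood test), and DESeq2 (9.53e-05), the likelihood ratio test (0.000131), limma-voom (0.018) and a stricter filter on low counts (0.0332) put it inside. The adjusted p also fell to between 0.0249 and 0.046 without 0w replicate c, 2w replicate a or 4w replicate a.

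In Lrig1 GL cells Zfp36 was high and scattered early and low at 8w. It was at 130, 315 and 356 CPM at 0w and 363, 136 and 690.2 CPM at 1w pw1. All 3 libraries of 8w lay at 117 to 123 CPM, below each 0w library (log2 difference -1.16 ± 0.48, SE, adjusted p = 0.158, edgeR). At 1w pw2, levels of 293, 155 and 243 CPM were again above those of 8w. The 1w pw1 library with 690.2 CPM, replicate 3, also had the highest sums of fibroblast (395 CPM) and of muscle and pericyte markers (85.4 CPM) of its group, whose part in the result was not tested.

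Egr1 encodes a zinc finger transcription factor induced through serum response factor. It had the widest spread of the abundant members at 0w. Among Lrig1 GL cells, it stood at 172, 603 and 679.6 CPM at 0w, 371, 147 and 263 CPM at 1w pw1, and 467, 409 and 296 CPM at 8w. The 0w replicate 1 was low against its fellows, and no time point was separate from 0w. The 0w mean of 485 ± 274 (SD, n = 3) was the highest and the 2w mean of 208 ± 49.4 CPM the lowest, with a log2 difference of -1.22 ± 0.48 (SE, adjusted p = 0.395, edgeR).

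In Lgr5 GL cells Egr1 was lowest at 0w, at 193, 165 and 45.5 CPM. It stood at 244, 360 and 401 CPM at 4w, all above 0w, and at 343, 581 and 186 CPM at 1w pw2, where replicate 3 fell within the 0w range. The log2 fold changes of 1.31 ± 0.47 and 1.46 ± 0.47 (SE) had adjusted p of 0.331 and 0.664 (edgeR).

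Myc, the basic helix-loop-helix factor that drives growth and ribosome production, gave no call in either population. For Lrig1 GL cells, it was 236, 118 and 149 CPM at 0w, and below each of these at 8w (79.7, 77.6 and 105 CPM) and at 1w pw2 (109, 73.0 and 92.1 CPM). The log2 differences of -0.94 and -0.87 had adjusted p of 0.129 and 0.201 (edgeR), and that at 8w became 0.03 when 2 surrogate variables were added. Among Lgr5 GL cells, the 4w libraries (42.8, 57.8 and 26.2 CPM) were the only group separate from 0w (74.9, 96.3 and 76.2 CPM), and lower. Its mean of 102 ± 16.9 (SD, n = 3) at 1w pw1 overlapped 0w.

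Nr4a1, an orphan nuclear receptor and a sensitive early gene, was near the floor in many libraries. For Lgr5 GL cells, it read 23.1, 1.25 and 14.5 CPM at 0w, 0.652, 2.26 and 0 CPM at 1w pw1, and 4.80, 1.503 and 0 CPM at 2w. At 8w it read 18.6, 19.7 and 6.49 CPM and at 1w pw2 20.8, 12.5 and 11.3 CPM. The 1w pw2 libraries were all above those of 1w pw1, whereas 0w overlapped every time point. For Lrig1 GL cells, 1w pw2 also had the highest mean (18.9 ± 11.6 CPM, SD, n = 3) and 4w the lowest, with 2 libraries at 0 and 1 at 1.53 CPM. Neither time course passed (adjusted p = 0.256 in Lgr5 and 0.493 in Lrig1 GL cells, edgeR).

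Btg2 recruits the deadenylation machinery and restrains the cell cycle. Across Lgr5 libraries it stood at 113, 96.5 and 36.2 CPM at 0w and at 14.03, 53.8 and 5.60 CPM at 1w pw1. The groups overlapped through 0w replicate c and 1w replicate 2, and the log2 difference was -1.79 ± 0.59 (SE, adjusted p = 0.121, edgeR). Without 1w replicate 2 it was -3.10 with an adjusted p of 0.0163. From 4w on, means were 87.3 ± 24.1, 89.8 ± 8.47 and 78.4 ± 19.1 CPM, around that of 0w. Across Lrig1 libraries the 1w libraries read 9.49, 11.3 and 51.7 CPM against 65.2, 49.5 and 47.4 CPM at 0w, and the 2w libraries (25.5, 37.8 and 24.7 CPM) were all below 0w.

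**Figure D2:**
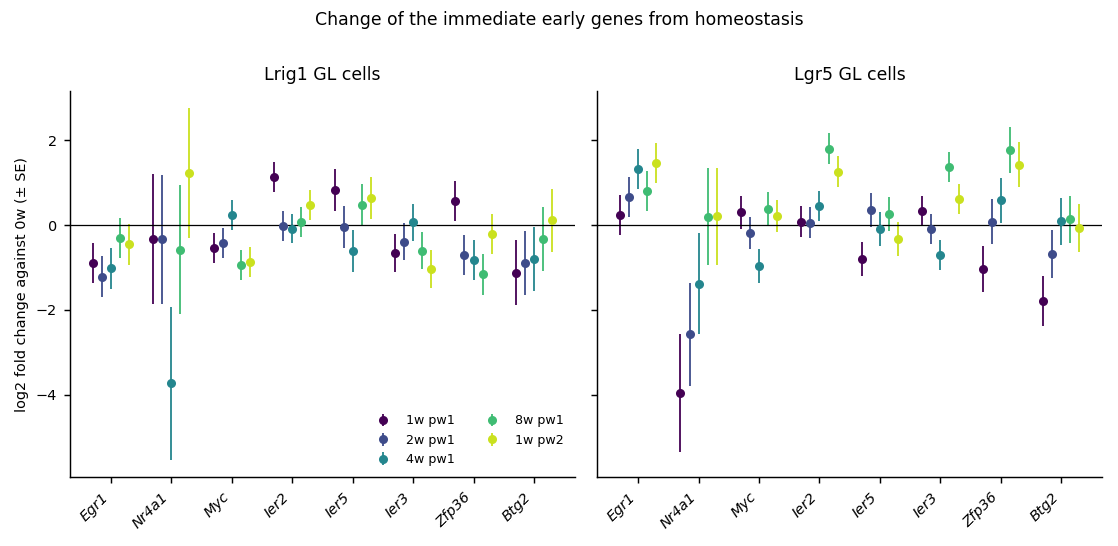
Log2 fold change of each gene against 0w at each time point, with its standard error, in both populations, from the edgeR fit of each table. The horizontal line is no change. At 8w the Lgr5 values of Ier2 (1.80), Zfp36 (1.78) and Ier3 (1.38) are above the line while the Lrig1 values of Zfp36 (-1.16) and Myc (-0.94) are below it.

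At single time points, no member was called against 0w in either population, and all such comparisons share the 0w libraries. Of all genes, 0.217%, 0%, 0.0419%, 2.82% and 1.23% were called at 1w, 2w, 4w, 8w and 1w pw2 in Lrig1 GL cells, and 1.29%, 0%, 0.155%, 0% and 0% in Lgr5 GL cells. At an unadjusted p under 0.05 (edgeR) stood 1, 1, 1, 2 and 2 of 8 members in Lrig1 GL cells, against 11%, 10.5%, 8.37%, 22.9% and 18.5% of genes. Within the Lgr5 population they were 2, 1, 2, 3 and 3 of 8, against 18.6%, 8.79%, 10.7%, 5.94% and 6.42%. In Lgr5 GL cells DESeq2 and the likelihood ratio test each called Nr4a1 and Btg2 at 1w, and at 8w DESeq2 called Ier2 and Ier3 and the likelihood ratio test Ier2. Limma-voom called none of these.

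The libraries of some members were separate from 0w. At 1w pw1 these were Ier2 in Lrig1 GL cells, higher (7.51% of genes), and Ier5 in Lgr5 GL cells, lower (9.8%). Btg2 was lower at 2w in Lrig1 GL cells (5.25% of genes), and at 4w in Lgr5 GL cells Egr1 and Ier2 were higher (6.62%) and Myc lower (7.79%). At 8w, Ier2, Ier3 and Zfp36 were higher in Lgr5 GL cells, 3 of 8 against 6.49% of genes, and Myc, Ier3 and Zfp36 lower in Lrig1 GL cells, 3 of 8 against 12.8%. At 1w pw2, Ier2, Ier3 and Zfp36 were higher (6.95% of genes) and Ier5 lower (5.33%) in Lgr5 GL cells, and Myc and Ier3 lower in Lrig1 GL cells (10.4%). No member was separate at 4w in Lrig1 GL cells (5.5% of genes were higher and 5.14% lower) or at 2w in Lgr5 GL cells (7.44% and 5.73%).

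Directions over all members at 8w were counted in each population, without a test. Among Lgr5 GL cells, at 8w all 8 genes had a log2 fold change above 0, with a median of 0.60, against 0.01 over all genes, 50.5% of which were above 0. This held with DESeq2 size factors, without Gm12415 and after removal of a GC content trend, with medians between 0.56 and 0.60. At 8w in Lrig1 GL cells 6 of 8 were below 0 (49.5% of all genes were above), with a median of -0.45, but with the GC trend removed 3 of 8 were, with a median of 0.12. The direction of the Lrig1 members as a set at 8w thus depended on this setting, while Myc, Zfp36 and Btg2 were below 0 in each of these scalings. With 2 surrogate variables in the fit, Myc was at 0.03.

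The second wound was compared with the first at the same interval. Mice were older and longer past labelling at the second wound, and these cannot be told apart from its being the second. For Lgr5 GL cells, 5 of 8 members (Nr4a1, Ier2, Ier5, Zfp36 and Btg2) were higher in every 1w pw2 library than in every 1w pw1 library, against 13.7% of genes. None was called by the edgeR quasi-likelihood test (0.266% of genes were), and 5 of 8 (Egr1 in place of Ier5) had an unadjusted p under 0.05, against 16.8%. Zfp36 came closest, with 215, 268 and 169.8 CPM against 34.3, 31.1 and 52.1 CPM, a log2 difference of 2.47 ± 0.56 (SE, adjusted p = 0.0627). The likelihood ratio test called Nr4a1 and Zfp36, DESeq2 these and Ier2, the stricter filter Zfp36, and limma-voom none. With 2 surrogate variables the Zfp36 difference was 1.39 (adjusted p = 0.498, edgeR). The median over the members was 1.19 against 0.09 over all genes, and 7 of 8 members were above 0 against 53.4% of genes. Myc (-0.09) was the only member below 0, and all 8 were above 0 after removal of the GC trend. Within the Lrig1 population no member was separate between the 2 wounds (11.2% and 8.81% of genes were, higher and lower), 0 were called (0% of genes) by edgeR, DESeq2 or limma-voom, and 0 of 8 had an unadjusted p under 0.05 (8.87% of genes).

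Compared with 8w, the 1w pw2 libraries of Lgr5 GL cells were lower for Ier2, Ier5 and Ier3 without overlap (6.32% of genes). The second wound was made at 8w, so the 8w libraries stand for the skin just before it. Ier3 had a log2 difference of -0.76 ± 0.35 (SE), and its adjusted p was 1 (unadjusted 0.0415, edgeR). In Lrig1 GL cells Zfp36 alone was separate, and higher at 1w pw2 (9.02% of genes). No member was called in either population (0.00699% of genes in Lrig1 and 0% in Lgr5 GL cells), nor by DESeq2 or limma-voom, and 0 and 1 of 8 had an unadjusted p under 0.05 by edgeR (5.72% and 3.83%).

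A joint fit of 16153 genes compared the populations. At 0w no member was called (2.9% of genes were). Egr1 had the largest log2 difference among the members, 1.504 ± 0.50 (SE) higher in Lrig1 GL cells, which did not pass (adjusted p = 0.0996, edgeR). The adjusted p was 0.0475, with a difference of 1.90, when leaving out Lrig1 0w replicate 1. Egr1 and Zfp36 had an unadjusted p under 0.05 (17.5% of genes), and both DESeq2 and the likelihood ratio test called Egr1. With 9 estimated surrogate variables the Egr1 difference was 0.38 (adjusted p = 0.897, edgeR). The change from 0w to 8w differed most for Zfp36, by -2.88 ± 0.75 (SE) in Lrig1 relative to Lgr5 GL cells, with an unadjusted p of 0.0006 and an adjusted p of 0.0513. Ier3 (-1.91 ± 0.57, adjusted p = 0.085) and Ier2 (-1.67 ± 0.51, adjusted p = 0.0918) followed. With Myc, 4 of 8 had an unadjusted p under 0.05, against 17.6% of genes, and 0 were called, against 1.11%. DESeq2 and the likelihood ratio test called Zfp36, Ier3 and Ier2, and limma-voom called Zfp36. Other settings gave smaller differences. With the GC trend removed Zfp36, Ier3 and Ier2 were at -2.26, -1.26 and -0.79 (adjusted p of 0.198, 0.349 and 0.569, edgeR), and with 9 estimated surrogate variables at -1.77, -0.66 and -1.27 (0.402, 0.853 and 0.56). In Lrig1 relative to Lgr5 GL cells, the changes to 1w pw1, 2w, 4w and 1w pw2 gave 0 members called (0.0495%, 0%, 0.0929% and 0.155% of genes were), with 2, 1, 2 and 3 of 8 at an unadjusted p under 0.05 by the edgeR test, against 15%, 9.34%, 10.5% and 13% of genes. DESeq2 called Egr1 at 4w (-2.38 ± 0.70, SE, edgeR adjusted p = 0.208). Since Zfp36, Ier3 and Ier2 were singled out by their 8w values in Lgr5 GL cells, the comparison is not independent of that observation.

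To set the members beside other responses, the summed CPM of the 8 genes was compared with those of 8 AP-1 genes, 14 heat shock genes and the wound keratinocyte genes, which include the wound keratins Krt6a, Krt6b and Krt16. Across Lgr5 libraries the members summed to between 487 and 894 CPM at 0w, 624 and 779 at 1w pw1, 1500 and 1967 at 8w, and 1081 and 1937 at 1w pw2. The AP-1 genes summed to between 634 and 833 CPM at 0w, 738 and 967 at 1w pw1, 1504 and 2222 at 8w, and 1668 and 2730 at 1w pw2. Both sums were thus higher at 8w and 1w pw2 than in any library of 0w or 1w pw1. The middle time points were less separate. At 2w and 4w the members summed to 600 to 1155 and 815 to 1090 CPM, below 8w but overlapping 1w pw2. The AP-1 sums were 636 to 1729 CPM at 2w and 827 to 1614 at 4w, and both overlapped 8w. Among Lrig1 libraries the AP-1 genes summed to between 664 and 1109 CPM at 0w, and to 1286 to 1942 at 1w pw1 and 1423 to 1925 at 1w pw2, all above 0w. The Lrig1 members did not share this: their sums after either wound overlapped those of 0w.

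The wound keratinocyte genes followed another time course in the same libraries. Within the Lgr5 population they summed to between 3233 and 5552 CPM at 0w, 7583 and 12100 at 1w pw1, 2088 and 4738 at 8w, and 3616 and 4673 at 1w pw2. At 2w the sums were 2985 to 5693 CPM, overlapping 0w, and at 4w 5861 to 8817 CPM, all above it. Krt6b, a keratin of injured epidermis, averaged 707 ± 224 CPM at 1w pw1. Its mean was 119 ± 11.8 CPM in the 0w and 144 ± 47.1 CPM in the 1w pw2 libraries (adjusted p of the time course 0.0363, edgeR). The sum was high at 1w pw1, when that of the members was not separate from 0w, and within the 0w range at 1w pw2, when that of the members was above it. Among Lrig1 GL cells, the wound genes were high after either wound (5957 to 15160 CPM at 1w pw1, 5294 to 8388 at 1w pw2, 2874 to 5327 at 0w), while the members spanned 1003 to 2255 and 1102 to 1641 CPM, overlapping the 1097 to 1862 CPM of 0w.

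Heat shock genes encode chaperones, and several are induced by handling and heat. In Lgr5 GL cells they summed to between 2405 and 2637 CPM at 0w, 2929 and 3581 at 1w pw1, 2673 and 3291 at 8w, and 2765 and 3027 at 1w pw2. All 3 time points were above 0w, by less in proportion than the members at 8w. The median log2 fold change at 8w was 0.10 over the 14 heat shock genes, 1.47 over the AP-1 genes and 0.60 over the members. Of the inducible Hsp70 genes, Hspa1b was at 103 ± 47.3 CPM at 0w and 118 ± 35.9 at 8w in Lgr5 GL cells. Hspb1, a small chaperone of keratinocytes, was the heat shock gene called over the Lgr5 time course (adjusted p = 0.028, edgeR). Its largest change from 0w was downwards, from a mean of 457 ± 87.3 CPM to 218 ± 95.3 at 2w and 260 ± 89.8 at 4w, and its means at 1w pw1 and 8w were 612 ± 156 and 790.4 ± 152 CPM. For Lrig1 GL cells, the heat shock sums at 8w, 2245 to 3218 CPM, overlapped the 2999 to 3417 CPM of 0w. Of the 14 genes, 9 had a log2 fold change above 0 and 5 below. There, 3 were called, 2 higher and 1 lower, against 2.82% of all genes. Hspa1b was at 282 ± 167 against 64.2 ± 28.2 CPM at 0w, and Hspb1 at 142 ± 27.6 against 329 ± 111 CPM. Mitochondrial counts were higher at 8w, while Myc, Ier3 and Zfp36 were lower. The part of heat shock genes or mitochondrial counts in the members' levels was not tested.

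**Figure D3:**
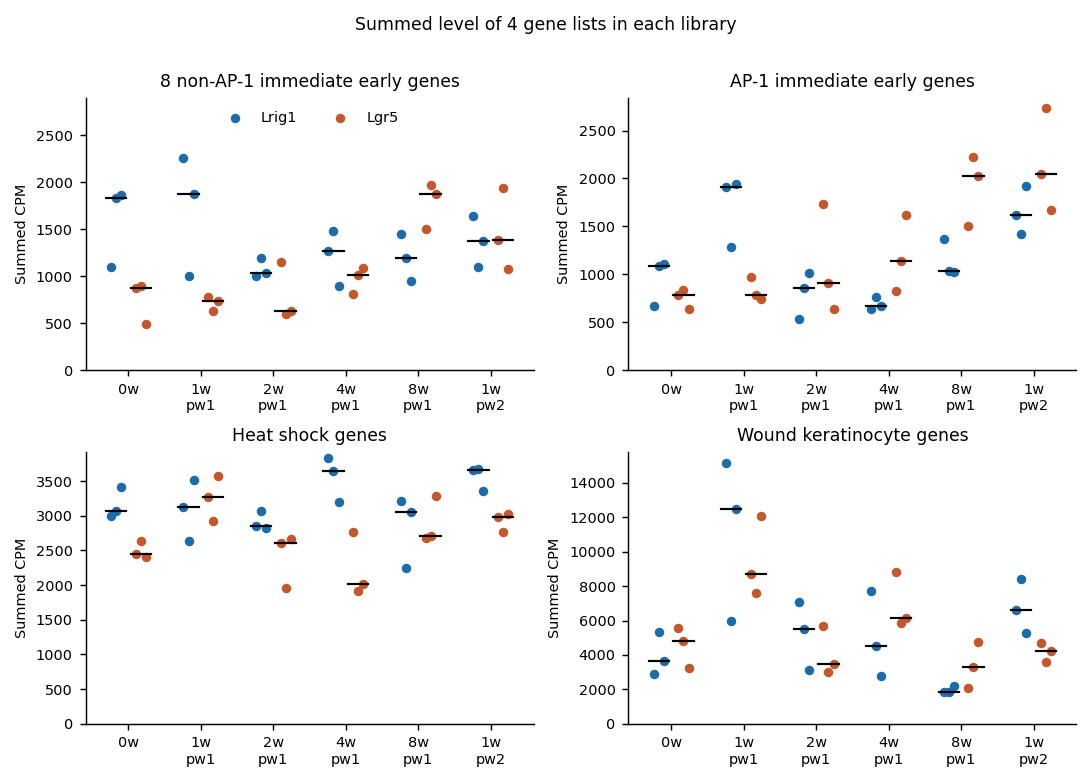
Summed CPM of the 8 members, the 8 AP-1 genes, the 14 heat shock genes and the wound keratinocyte genes in each library, by time point and population, with axes from 0. Points are libraries and bars are medians of 3. The Lgr5 sums of members and AP-1 genes are highest at 8w and 1w pw2, and that of the wound genes at 1w pw1, while the Lrig1 AP-1 sums are above 0w at 1w pw1 and 1w pw2.

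Among the AP-1 genes, Jun was called in Lgr5 GL cells (adjusted p = 0.00955, edgeR). It was at 185 ± 43.0 CPM at 0w, 214 ± 78.5 at 1w pw1, 388 ± 168 at 2w and 412 ± 62.6 at 4w. At 8w it was at 525 ± 118 and at 1w pw2 at 891 ± 175 CPM, so its mean was already above that of 1w pw1 from 2w on. Fos stood at 38.0 ± 24.2 CPM at 0w, 51.3 ± 16.6 at 1w pw1, 113 ± 121 at 2w and 154 ± 86.0 at 4w. At 8w Fos was at 266 ± 125 and at 1w pw2 at 229 ± 74.9 CPM, and it did not pass (adjusted p = 0.11, edgeR). In Lrig1 GL cells the AP-1 gene called was Junb (adjusted p = 0.0485, edgeR). Its mean was 316 ± 37.3 CPM before wounding and 864 ± 385 CPM at 1w pw1. Within each Lgr5 time point, the library with the highest sum over the members was also the highest for AP-1 in 6 of 6 groups, and for heat shock genes in 1 of 6 (4 of 6 when scaled to total counts). Across Lrig1 libraries this was so in 3 of 6 groups for each list. Lgr5 2w replicate a and 1w pw2 replicate 2 were each the highest of their group for 7 of 8 members.

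Variation between libraries of a group set how firmly each gene can be placed. The share of the variance of log2 CPM lying between time points would be 29.4% with equal means. Among Lgr5 GL cells, it was 78.4% for Ier2 (above 98.5% of genes tested), 76.1% for Ier3 (97.8%) and 69.8% for Zfp36 (94.8%), against a median of 37.4% over all genes. Btg2, Nr4a1 and Myc had between 60% and 62.8%, and Ier5 and Egr1 51.1% and 50.5%. Within the Lrig1 population the highest were Myc (57.7%, above 79.8% of genes) and Ier2 (56%), and Egr1 (35.1%) and Btg2 (32.3%) were below the median of 40.1%.

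**Figure D4:**
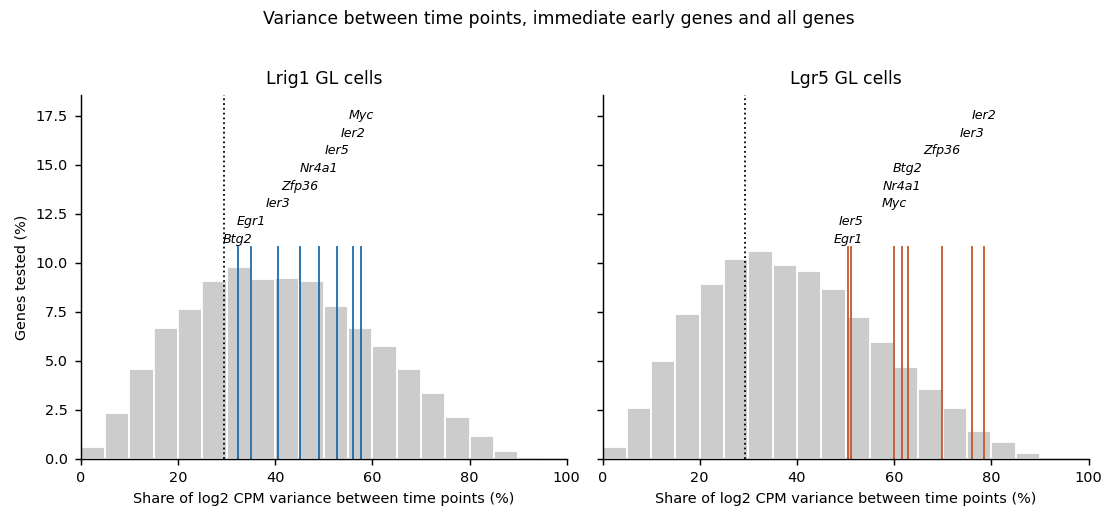
Share of the variance of log2 CPM that lies between the 6 time points, as a histogram over all genes tested in each population. Coloured lines are the 8 members and the dotted line is the 29.4% given by equal means. Ier2, Ier3 and Zfp36 lie at the right of the Lgr5 distribution, at 78.4%, 76.1% and 69.8%.

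The members did not form a single block. Over the 28 pairs, Pearson's r of log2 CPM across the 18 libraries had a median of 0.15 for Lrig1 (lowest -0.60, highest 0.60) and of 0.34 for Lgr5 GL cells (lowest -0.25, highest 0.82). The medians were 0.12 and 0.21 after the time point means were removed. Pairs share libraries and their depth, so these are descriptions. The genes most like the members' mean in Lgr5 GL cells were Ap1b1 (r = 0.86), Id1 (0.86), Rnf44 (0.85), Mcmdc2 (0.85) and the AP-1 gene Junb (0.84), over 18 libraries. In Lrig1 GL cells they were Krt8 (0.77), Iars2 (0.75), Rpl35a-ps6 (0.74), Ggnbp1 (0.73) and Zfp142 (0.70). The means of Mcmdc2 in Lgr5 GL cells (1.58 CPM) and Krt8 in Lrig1 GL cells (3.66 CPM) lay within the floor ranges given above, so their r is less certain.

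Genes tied to the members by function were counted in the same way. Of 20 known Myc targets, 3 were called over the Lrig1 and 2 over the Lgr5 time course, against 1.63% and 1.13% of all genes. Among the 3 was the cyclin gene Ccnd2 (adjusted p = 0.0187, edgeR), which was lower at 1w pw1, at 221 ± 60.5 against 654 ± 158 CPM at 0w. The glycolytic enzyme gene Ldha was called in both, at 498 ± 67.0 CPM at 0w and 1565 ± 239.9 at 1w pw1 in Lrig1 GL cells (adjusted p = 0.0294, edgeR) and 525 ± 39.9 and 1503 ± 793 in Lgr5 GL cells (0.0252). Nme1, a nucleoside diphosphate kinase, was called in Lgr5 GL cells (0.0435), at 63.6 ± 25.0 and 197 ± 28.2 CPM. Myc itself overlapped between 0w and 1w pw1 in both populations. Of 12 mRNAs known to be bound by Zfp36, 4 could be tested, and the 1 called in Lgr5 GL cells was Ier3, itself a member, which was high at 8w together with Zfp36. The 10 paralogs of the members gave 0 calls in either time course, with 2 at an unadjusted p under 0.05 in each. Other immediate and delayed early genes gave 0 calls among 25 tested in Lgr5 GL cells, where 10 had an unadjusted p under 0.05, and 0 among 24 in Lrig1 GL cells, where 5 did. The upstream receptors, serum response factor and related regulators gave 0 calls among 16 in each, with 7 in Lrig1 and 2 in Lgr5 GL cells at an unadjusted p under 0.05. Over all genes that share was 20.5% in Lrig1 and 16.9% in Lgr5 GL cells. Calls by other tools were not counted for these lists.

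Markers of other cells were measured beside the Lgr5 8w result. Summed CPM of fibroblast markers was between 120 and 264 at 8w against 262 to 548 at 0w, and that of melanocyte markers between 27.8 and 75.3 against 67.9 to 90.3. Gm12415 took 15.2% to 30.1% of the counts at 8w against 29.0% to 45.4% at 0w. Over all alternatives, of which leaving Gm12415 out was 1, the log2 fold changes ranged from 1.70 to 1.82 for Ier2. They ranged from 1.19 to 1.39 for Ier3 and from 1.69 to 1.79 for Zfp36. The part of the marker differences in these results was not tested.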

How the data were processed

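The authors trimmed reads with Trim Galore 0.5.0, aligned them to GRCm38/mm10 with HISAT2 and counted them over GENCODE M20 genes with featureCounts. They also processed the normalized counts with SVA (surrogate variables) against noise, whereas the main fit here held no surrogate variables. The deposited values are raw counts per gene, 1 table for each population, and CPM here are those counts scaled by library size and trimmed mean of M-values (TMM) factors. Each table was fitted with edgeR 4.0.16 in R 4.3.3 (glmQLFit, 1 mean per group, filterByExpr with a minimum count of 10) and tested across the time course, against 0w and between wounds. A joint fit compared populations. Calls needed a Benjamini-Hochberg adjusted p under 0.05 and, against 0w, a change of over 1 log2 unit. Alternatives used limma 3.58.1, DESeq2 1.42.0 and sva 3.50.0, other filters and scalings, and left out each library in turn. Fits were tested on simulated data. The members and lists were chosen with earlier results of these data known. Named from each list were the 3 genes with the smallest adjusted p and Fos, Jun, Atf3, Hspa1a, Hspa1b, Krt6a and Krt16, of which the text gives a selection. Numbered libraries did not deviate together (mean r of same-numbered pairs 0.004 in Lrig1 and -0.02 in Lgr5).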

Additional observations from a re-analysis of the deposited data

How the results depend on the processing

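With 3 libraries a group and 150 cells a library, calls among the 8 genes depended on the test. Against the edgeR quasi-likelihood counts, members called moved as follows. Across the Lrig1 time course 0 became 2 with the likelihood ratio test and 2 with DESeq2. Across the Lgr5 time course 2 became 4 with the likelihood ratio test, 3 with DESeq2, limma-voom or the stricter filter, which added Zfp36, and 0 with either number of surrogate variables. In Lgr5 GL cells 0 became 2 and 2 at 1w against 0w, 1 and 2 at 8w against 0w, and 2 and 3 at 1w pw2 against 1w pw1, with the likelihood ratio test and DESeq2 in turn, and 1 with the stricter filter in the last. Between populations at 0w 0 became 1 with each of these tests. For the change to 4w it became 1 with DESeq2. For the change to 8w it became 3 with each, and 1 with limma-voom and with the stricter filter. Leaving out 1 library gave 0 to 3 calls across the Lgr5 time course and 0 to 1 in the Lgr5 comparisons at 1w, at 8w and between wounds, at 0w between populations and in the change to 8w.

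Among changes with an unadjusted p under 0.05, directions reversed for Myc alone. At Lrig1 8w its log2 difference was 0.029 with 2 surrogate variables against -0.94, and its 8w difference between populations 0.291 with 9 estimated surrogate variables against -1.26. Smaller changes also turned, among them, with the GC trend removed, Egr1, Nr4a1 and Ier3 at Lrig1 8w and Egr1 and Zfp36 at Lrig1 1w pw2 against 0w, which went from below to above 0.

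For groups with numbered replicates, a fit with the replicate number as a block called 0 members in each comparison (Lrig1 1w and 1w pw2 against 0w, and between wounds in both populations), as did these groups without the block, a setting chosen after seeing the data. The labels do not say that a number marks a shared animal or day. Over all genes the block left 3 and 1 calls in the first 2 comparisons, against 19 and 97 without it.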
